A study of Homo sapiens with 14 samples.

Results

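The transcripts of 10 growth factor ligands and receptors were followed in the human lung fibroblast line IMR90. They were the ligands PDGFA, PDGFB, PDGFC, PDGFD, VEGFA, VEGFC and HGF and the receptors PDGFRA, PDGFRB and MET, chosen by name from the 24638 genes that every table listed. Poly(A) RNA was sequenced from 7 groups. The isolates I79 and I10 were each taken while proliferating (young) and after serial passaging into replicative senescence (old). I79 ICM are I79 cells given ICM, or inflachromene, a compound known to bind HMGB1 and HMGB2. WT are wild type cells and HMGB2 KD are cells in which the chromatin protein HMGB2 was depleted by siRNA. The labels name neither the isolate of WT and HMGB2 KD nor whether WT received a control siRNA.

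Platelet-derived growth factors are secreted dimers that drive division and migration of mesenchymal cells through the receptor tyrosine kinases PDGFRA and PDGFRB. PDGFA, PDGFB and PDGFC bind PDGFRA or both receptors, and PDGFD acts mainly through PDGFRB. VEGFA is the main growth factor of blood vessel endothelium and a classic hypoxia target, and VEGFC acts on lymphatic endothelium. HGF is secreted by fibroblasts as a precursor and signals to epithelial cells through its receptor MET.

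Each old or young group had 1 table of estimated counts (14991385 to 20632959 in total), and whether such a table pools the replicates named in the titles is not stated. WT and HMGB2 KD had 2 libraries each (33561766 to 41168932 counts), and ICM had 2 (13290131 and 10971132 reads). Nothing in the labels says that replicates came from separate cultures, so p-values measure the spread between these samples only. The targeted gene HMGB2 had 27.1 and 27.3 CPM (counts per 1e6, TMM-scaled) in the WT libraries against 3.22 and 3.64 after knockdown. LMNB1 fell (log2 fold change -2.86) and CDKN1A rose (2.48) in old cells, while neither was called in HMGB2 KD. Summed fibroblast markers lay between 12186 and 32617 CPM in all groups. CDH5, SFTPC and CD3E, defining markers of endothelial, alveolar epithelial and T cells, were at 0 in every library. Other genes of the same lists were present, such as TEK, KRT18 and CD68, whose lists are summed further below.

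By estimated counts, HGF, PDGFD and VEGFA each had 2 leading protein-coding forms in the old and young tables. By the deposited TPM, which corrects for transcript length, the order differed for HGF and VEGFA. VEGFA-222 stood above VEGFA-206 in every table (13.4 against 11.5 TPM in I79 young). HGF-208 (25.3 TPM) stood above HGF-209 (22.7) and HGF-201 (9.14) in I10 young. An internal coding stretch that 1 form of each pair leading by counts lacks is shown here. The forms also differ elsewhere: HGF-201 has 5987 bases and HGF-209 2703, PDGFD-202 3801 and PDGFD-201 4052, and VEGFA-205 3535 and VEGFA-206 2834. Of these bases, 1113 are coding in VEGFA-205 and 441 in VEGFA-206. The transcript shares given below therefore do not rest on the shown stretches alone. The sequences were read from GRCh37 in the direction of transcription, with the stretch that 1 form lacks in capitals and 15 spliced coding bases on each side in lower case. For HGF the stretch lies at chr7:81381564-81381578 (minus strand), at the 5′ end of an exon. HGF-201 has it and HGF-209, a known variant shortened in the first kringle domain, does not. For PDGFD it is the 5′ end of an exon at chr11:103870966-103870983 (minus strand), present in PDGFD-202 and absent from PDGFD-201. For VEGFA it is a whole coding exon at chr6:43749693-43749824 (plus strand), which carries part of the heparin-binding region, present in VEGFA-205 and absent from VEGFA-206.
HGF: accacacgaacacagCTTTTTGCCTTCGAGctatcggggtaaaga
PDGFD: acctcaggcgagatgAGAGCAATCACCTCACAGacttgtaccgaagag
VEGFA: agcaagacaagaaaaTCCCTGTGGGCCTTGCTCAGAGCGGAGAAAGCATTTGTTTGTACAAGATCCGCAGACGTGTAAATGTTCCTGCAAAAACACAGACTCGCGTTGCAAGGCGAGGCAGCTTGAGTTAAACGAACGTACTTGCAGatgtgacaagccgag

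Per unit of transcript length, PDGFRA led the list in young cells and VEGFA in old cells. In the young tables the deposited TPM (abundance scaled for transcript length and depth) of PDGFRA was 309 in I79 and 267 in I10, followed by VEGFA at 141 in both. HGF (136 in I79, 87.1 in I10) and PDGFRB (108 and 99.1) came next, and their ranges overlapped. In the old tables VEGFA stood at 253 TPM in I79 and 223 in I10. The levels of PDGFRB (132 and 127 TPM), HGF (94.0 and 139) and PDGFRA (96.3 and 126) in old cells could not be ordered, since each range overlapped the next. PDGFA and PDGFB were the lowest in every table, at 3.52 TPM or less. In WT, where levels are CPM per kilobase, PDGFRA (247 and 284) again stood above HGF (162 and 182), VEGFA (87.3 and 90.3) and PDGFRB (35.6 and 43.5), and PDGFC overlapped VEGFC.

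**Figure D1:**
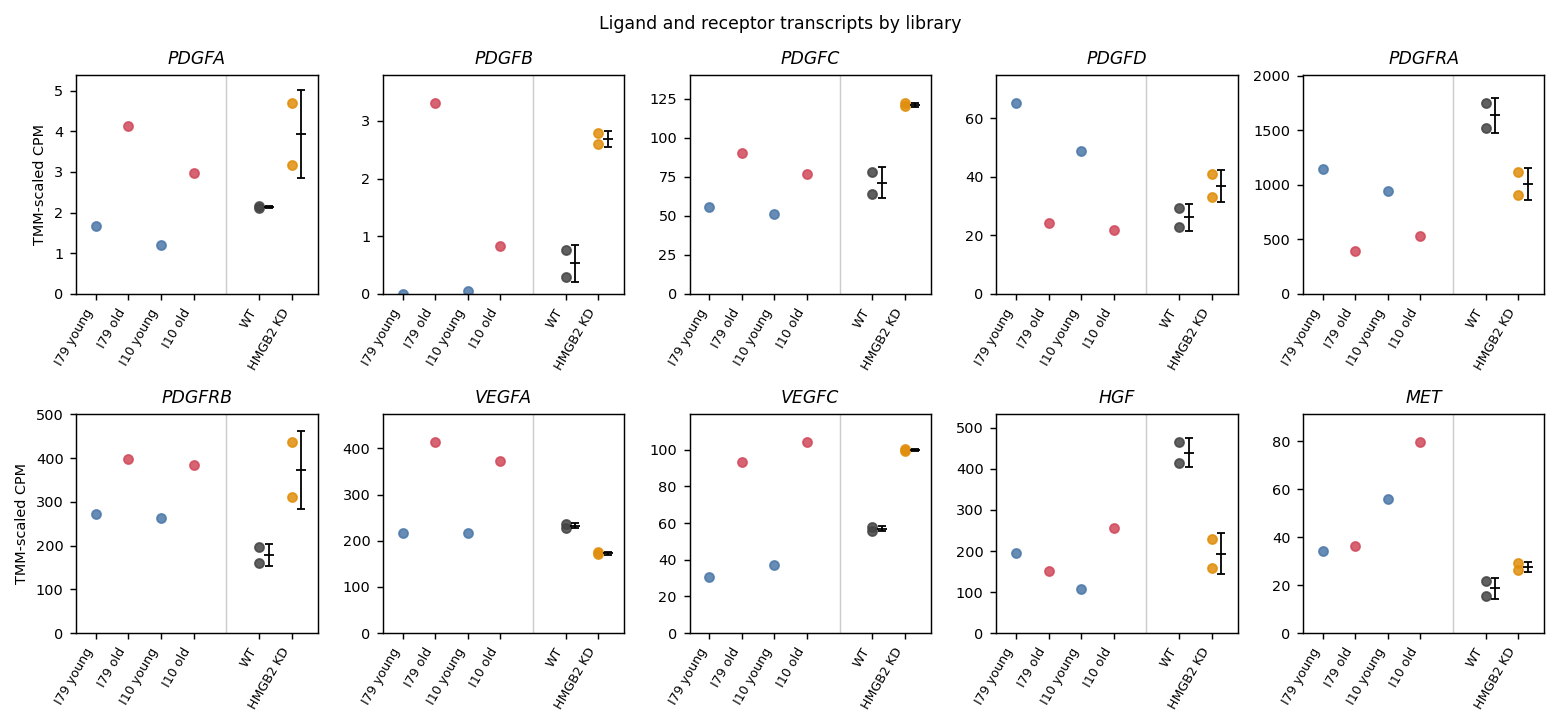
TMM-scaled CPM of the 10 transcripts (y axis, linear from 0), 1 point per table or library, with the mean ± SD (n = 2) of WT and HMGB2 KD as black bars. Old and young tables (left of the grey line) were counted and scaled apart from WT and HMGB2 KD (right), so levels compare only within a side. Both HMGB2 KD libraries lay above or below both WT libraries for all 10 genes.

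Replicative senescence was examined first, with both isolates as replicates (edgeR's quasi-likelihood test, isolate as a covariate). A gene was called where its adjusted p was below 0.01 and its log2 fold change exceeded 0.6 in size. Of the members, 3 were called: VEGFA and VEGFC rose and PDGFD fell. Among all 15115 genes in the fit, the called share was 9.57%, with 5.75% up and 3.82% down. The median log2 fold change was 0.59 over the 10 members and -0.010 over all genes tested. Old and young values did not overlap for 8 of the members, against 74.0% of all genes. The median and the 8 include PDGFB, which passed the filter on low counts only through the old tables. Its direction was thus fixed by that filter. Fewer cells of a type and less RNA per cell cannot be told apart in such bulk samples.

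Among the PDGF ligands, PDGFD (chr11:103777917-104035107) went from 65.2 CPM in young to 24.3 in old I79 cells and from 48.9 to 21.9 in I10. Both old tables lay below both young ones, and PDGFD fell to 0.41-fold (log2 fold change -1.29, SE 0.12, adjusted p 0.0055). PDGFC (chr4:157681606-157892951) showed the opposite order, with 55.7 and 51.4 CPM in young I79 and I10 and 90.2 and 76.9 in old. Its difference (0.64, SE 0.10) had an adjusted p of 0.013 by edgeR's test and was not called. PDGFA (chr7:536895-559933) was low in young cells (26 and 23 counts), with 1.66 and 1.20 CPM against 4.12 and 2.98 in old cells (adjusted p 0.037, edgeR, not called).

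PDGFB (chr22:39619364-39640987), which encodes the chain that binds both PDGF receptors, was nearly absent from young cells. It had 0 counts in I79 young and 1 in I10 young, against 61 in I79 old (3.31 CPM) and 15 in I10 old (0.83 CPM). Taking 3 counts as the limit of the 0 in I79 young, 0.19 CPM, I79 old was 17.2-fold above that limit, and the exact 95% counting interval of the log2 ratio began at 3.77. In I10 the log2 ratio was 3.99, with a 95% counting interval from 1.29 to 9.39. The deposited TPM of PDGFB in I10, which corrects for transcript length, was 0.22 in young and 0.53 in old cells, a smaller difference. The adjusted p of PDGFB was 0.016 by edgeR's test, so it was not called. The fitted log2 fold change was 5.68, against 3.11 with length-scaled counts (adjusted p 0.097, edgeR). PDGFB was called with DESeq2 (5.89, adjusted p 0.0071) and with no filter (5.65, adjusted p 5.6e-08, edgeR).

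The PDGF receptors had opposite signs. PDGFRA (chr4:55095447-55164412), the most abundant member in young cells, had 1145 and 939 CPM in young I79 and I10 and 391 and 532 in old. PDGFRB (chr5:149493402-149535435), the receptor also known from pericytes, had 271 and 263 CPM in young and 397 and 384 in old. Neither set of values overlapped, yet neither gene was called: the fitted value was -1.18 for PDGFRA (SE 0.22, adjusted p 0.019, edgeR) and 0.55 for PDGFRB (SE 0.11, adjusted p 0.025, edgeR). PDGFRA was called when DESeq2 (adjusted p 5.2e-08) or length-scaled counts (adjusted p 0.0081, edgeR) were used. A readthrough gene on the same strand, ENSG00000282278, overlaps PDGFRA and held 125 counts in I10 old, where PDGFRA had 9632, and 0 in the other 3 tables.

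Both vascular growth factors rose. VEGFA (chr6:43737921-43754224) had 217 CPM in each young isolate, 413 in I79 old and 372 in I10 old, a 1.80-fold rise (log2 fold change 0.85, SE 0.12, adjusted p 0.0099, edgeR). Its adjusted p lay just under the threshold. VEGFC (chr4:177604689-177714076) had 30.5 and 37.1 CPM in young I79 and I10 and 93.5 and 104 in old, a 2.93-fold rise (1.55, SE 0.10, adjusted p 0.0038, edgeR). The old values of both factors lay above the young ones in either isolate.

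HGF (chr7:81328326-81399754) and its receptor MET (chr7:116312250-116438431) were not called, and their old and young values overlapped. HGF had 195 CPM in young and 152 in old I79 cells, but 108 and 256 in I10. The fitted log2 fold change was 0.44 with an SE of 0.39 (adjusted p 0.43, edgeR). MET had 34.2 and 36.2 CPM in young and old I79 cells, and 56.2 and 79.6 in I10 (0.30, SE 0.14, adjusted p 0.17, edgeR).

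Within each isolate there was 1 table a side and no test, so ratios carry intervals for counting error only. An absolute log2 ratio of 0.6 was passed by 7 members in I79 and 7 in I10, where 41.2% and 37.3% of all genes did. Both sets of 7 include PDGFB, which passed the filter on low counts only through the old tables. The intervals of the 2 isolates did not meet for 4 members. For HGF the log2 ratio of old over young was -0.36 (-0.43 to -0.28) in I79 and 1.24 (1.16 to 1.31) in I10, so the isolates lay on opposite sides of 0. PDGFRA was lower in old cells of both isolates, with ratios of -1.55 (-1.59 to -1.51) in I79 and -0.82 (-0.85 to -0.78) in I10. MET was 0.080 (-0.087 to 0.25) in I79 and 0.50 (0.39 to 0.62) in I10, and VEGFA was 0.93 (0.87 to 0.99) and 0.77 (0.72 to 0.83). The change differed by more than 0.6 for 3 members (PDGFRA, HGF and PDGFB, whose value rests on counts of 0 and 1) and for 21.0% of all genes. PDGFRB had nearly the same ratio in both, 0.55 (0.50 to 0.61) in I79 and 0.55 (0.50 to 0.60) in I10.

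**Figure D2:**
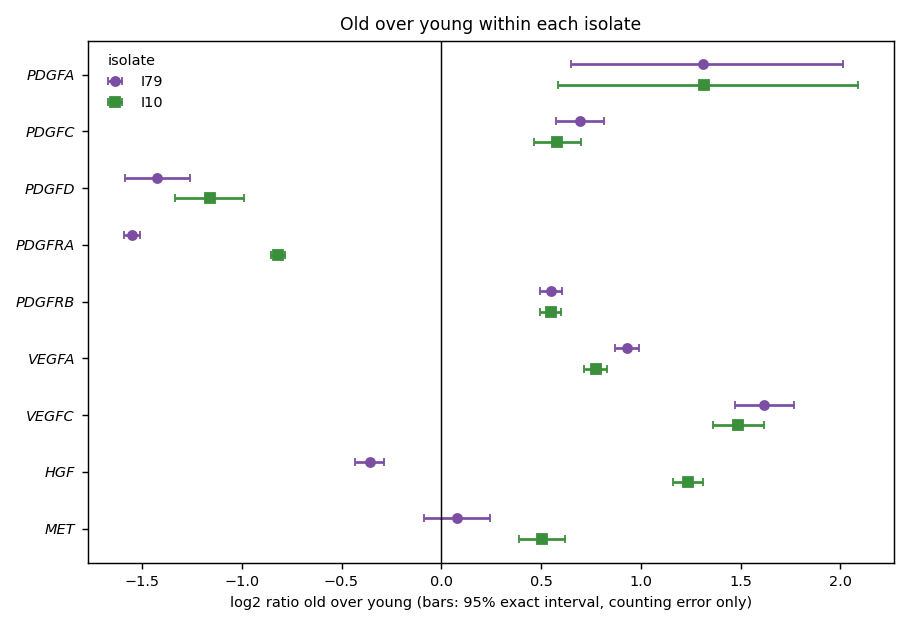
Log2 ratio of old over young (x axis) for 9 members within I79 (circles) and I10 (squares), with 95% exact intervals for counting error only. PDGFB is left out because I79 young had 0 counts. The HGF points lie on opposite sides of 0, at -0.36 and 1.24, and the PDGFRB points at 0.55 lie on each other.

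The young isolates already differed in HGF and MET. I10 young over I79 young gave a log2 ratio of -0.85 (-0.93 to -0.77) for HGF and 0.71 (0.56 to 0.87) for MET. These were the 2 members past 0.6, where 7.99% of all genes were. I10 young thus held less ligand and more receptor transcript than I79 young, with no replicate check.

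Depletion of HMGB2 was compared with WT next (2 libraries against 2, edgeR's quasi-likelihood test). Of the members, 5 were called: PDGFB, PDGFC, PDGFRB and VEGFC rose and HGF fell. Among all 15338 genes in the fit, the called share was 5.2%, with 2.86% up and 2.34% down. The median log2 fold change was 0.67 over the members and 0.0018 over all genes tested. The 2 groups did not overlap for any of the 10 members, against 53.8% of all genes.

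HGF had 464 and 414 CPM in WT and 229 and 159 in HMGB2 KD, with group means of 439 ± 35.4 and 194 ± 49.2 (SD, n = 2). It fell to 0.44-fold (log2 fold change -1.18, SE 0.17, adjusted p 0.00059, edgeR). MET had 15.6 and 21.7 CPM in WT and 26.3 and 29.2 in HMGB2 KD, which was not called (0.57, SE 0.16, adjusted p 0.039, edgeR). The ligand therefore stood lower and the receptor higher in both knockdown libraries than in either WT library, the latter without passing the test.

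PDGFB had 0.76 and 0.29 CPM in WT (26 and 11 counts) and 2.59 and 2.78 in HMGB2 KD (95 and 111 counts), a 5.12-fold rise (2.36, SE 0.45, adjusted p 0.0041, edgeR). PDGFC had 64.2 and 78.4 CPM in WT and 120 and 122 in HMGB2 KD, a 1.70-fold rise (0.77, SE 0.13, adjusted p 0.0022, edgeR). PDGFA had 2.16 and 2.12 CPM in WT and 3.17 and 4.69 in HMGB2 KD (adjusted p 0.078, edgeR), and PDGFD had 22.8 and 29.4 against 40.9 and 33.1 (adjusted p 0.060, edgeR). All 4 PDGF ligands thus had higher values in the knockdown libraries, and 2 of them passed the test.

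PDGFRB had 160 and 196 CPM in WT and 310 and 436 in HMGB2 KD. It rose 2.09-fold (1.06, SE 0.17, adjusted p 0.0013, edgeR). PDGFRA had 1524 and 1749 CPM in WT and 1114 and 905 in HMGB2 KD, and its log2 fold change of -0.70 (SE 0.16) narrowly missed the threshold (adjusted p 0.011, edgeR). It was called with DESeq2 (adjusted p 4.2e-05) and, by edgeR, with no filter, with 1 RUVs factor and with the replicate block. With RLE scaling it was not called (adjusted p 0.0107, edgeR). Its log2 fold change was -0.79 without WT replicate 1 and -0.599 without WT replicate 2. Without HMGB2 KD replicate 1 it was -0.86, and without HMGB2 KD replicate 2 it was -0.55.

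VEGFC had 58.0 and 56.0 CPM in WT and 99.6 and 100 in HMGB2 KD, a 1.76-fold rise with little spread between libraries (0.81, SE 0.12, adjusted p 0.00077, edgeR). VEGFA had 237 and 229 CPM in WT and 175 and 171 in HMGB2 KD (-0.43, SE 0.13, adjusted p 0.049, edgeR, not called). Both knockdown libraries lay below WT for VEGFA and above it for VEGFC.

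Leaving out HMGB2 KD replicate 2 reduced the called members to 2 (HGF and VEGFC) and the called genes from 797 to 312. The call of PDGFC also ended without WT replicate 1 (adjusted p 0.052) and that of PDGFB without WT replicate 2 (0.013) or HMGB2 KD replicate 1 (0.016), by the same edgeR test. MET was called without WT replicate 2 (0.83, adjusted p 0.0061).

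**Figure D3:**
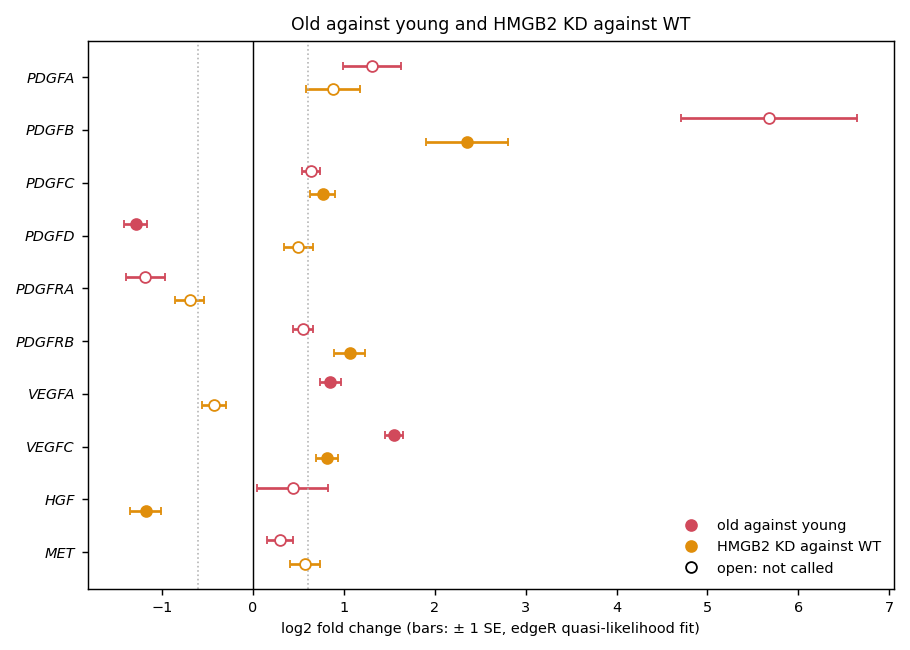
Log2 fold change (x axis) of each member in old against young cells (red) and in HMGB2 KD against WT (orange), with bars of 1 SE either side. Filled points were called, open points were not, and dotted lines mark 0.6. VEGFC was called higher in both, and the fitted PDGFB value in old cells rests on 0 and 1 counts in the young tables.

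The 2 comparisons share no sample. VEGFC was the member called in both, higher each time. PDGFC and PDGFRB had positive values in both and were called in HMGB2 KD but not in old cells, while the sign of PDGFD and of VEGFA differed between them. PDGFB was also called in HMGB2 KD only. Its positive value in old cells was fixed by the filter on low counts and says nothing about a shared direction. Whether the changes of these genes differ between the comparisons was not tested, since the tables were counted in different ways.

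The ratio of PDGFRA to PDGFRB per unit of length is free of library scaling and was computed in each library. In I79 it was 2.86 when young and 0.73 when old, and in I10 it was 2.70 and 0.99. It was 6.96 and 6.52 in WT and 2.63 and 1.52 in HMGB2 KD. Both old tables lay below both young ones, and both knockdown libraries below both WT libraries. In the ICM libraries, counted in yet another way, it was 0.86 and 1.10.

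**Figure D4:**
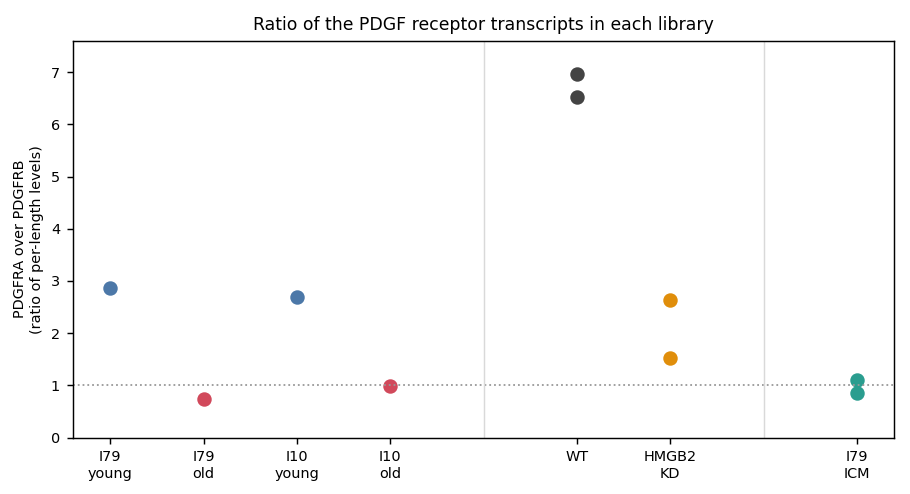
Ratio of PDGFRA to PDGFRB per-length levels (y axis, linear from 0), 1 point per table or library, with a dotted line at equal levels. Grey lines part tables that were counted in different ways. The ratio was 2.70 to 2.86 in young and 0.73 to 0.99 in old cells.

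For ICM no matched control was counted in the same way, so its libraries were set beside I79 young without a test, as CPM over the genes that all tables list. Of the 9 members with a ratio, 7 passed an absolute log2 difference of 0.6, as did 60.7% of all genes compared. WT, whose labels name no ICM, passed it against I79 young for 5 of the 9 members and for 44.6% of all genes. The counting and the treatment therefore cannot be told apart, and the values are a description. Without the reads of untranslated regions in the ICM libraries, 5 members passed, since PDGFD (0.35 in place of 0.87) and PDGFA (0.24 in place of 0.82) no longer did. Under the same setting VEGFA was -1.38, PDGFC -1.39 and HGF -0.22.

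PDGFRA had 88.9 and 100 CPM in the ICM libraries against 1305 in I79 young, 397 in I79 old and a mean of 1775 in WT. Its log2 difference from I79 young was -3.79, against 0.44 for WT. PDGFRB had 75.9 and 66.6 CPM against 309 in I79 young (-2.12, with -0.68 for WT). Both receptors were thus lower in ICM than in I79 young, I79 old and WT.

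VEGFC had 154 and 148 CPM in the ICM libraries against 34.7 in I79 young and 94.9 in I79 old (2.12, with 0.83 for WT). PDGFD had 137 and 134 CPM against 74.3 in I79 young (0.87, with -1.40 for WT). VEGFA (131 and 148 CPM against 247, a difference of -0.83) and PDGFC (33.7 and 33.1 against 63.5, -0.92) were lower than in I79 young. PDGFA had 2.87 and 4.05 CPM against 1.90 (0.82). HGF (167 and 178 CPM against 223) and MET (28.0 and 32.4 against 39.0) differed by less than 0.6, with -0.37 for each. PDGFB had 0 reads in both ICM libraries and in I79 young, so no fold is given.

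The old and young tables resolve transcripts, and their shares of a gene's estimated counts carry exact 95% intervals for counting error. Counts grow with transcript length, so the shares below are not shares of molecules. HGF-201 and HGF-209, the full-length forms shown above, together made 69.7% of HGF in I79 young (68.0 to 71.3) and 74.1% in I79 old (72.4 to 75.7). In I10 they made 61.0% (58.9 to 63.1) in young and 80.4% (79.2 to 81.5) in old cells. The rest came mostly from transcripts with short coding sequences. HGF-209, without the 15 capital bases, held 34.4% of HGF in young and 38.1% in old I79 cells, and 31.8% and 40.6% in I10.

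PDGFD-201, which lacks the 18 capital bases, made 20.3% of PDGFD in I79 young (17.8 to 22.8) and 32.3% in I79 old (28.1 to 36.9). In I10 its share was 10.5% (8.56 to 12.6) in young and 27.7% (23.4 to 32.5) in old cells. The form with the 18 bases held the larger share in every table. In estimated counts PDGFD-202 had 812 in young and 303 in old I79 cells, and PDGFD-201 had 206 and 145.

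VEGFA-205, with the heparin-binding exon, held 35.4% of VEGFA in I79 young and 41.5% in I79 old, and 36.0% and 40.8% in I10. VEGFA-206, without it, held between 7.20% and 8.67% in all 4 tables. Transcripts annotated as retained introns made 48.6% (46.9 to 50.3) of VEGFA in I79 young and 43.0% (41.8 to 44.1) in I79 old, and 50.6% (49.1 to 52.1) and 44.9% (43.7 to 46.1) in I10. The rise of VEGFA in old cells thus came with a lower share of these forms in the estimated counts of both isolates. Their share of TPM was not computed. PDGFC-201, annotated as a target of nonsense-mediated decay, held between 77.4% and 81.0% of the estimated counts of PDGFC in every table. By TPM it had 25.0 of 38.6 in I79 young.

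**Figure D5:**
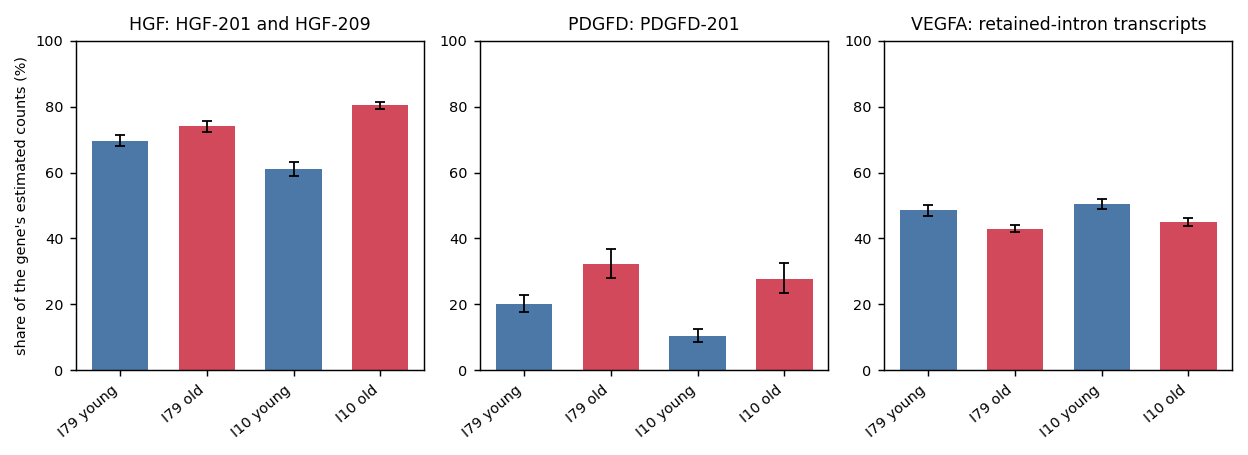
Share of a gene's estimated counts (y axis, percent, from 0) held by the full-length HGF transcripts, by PDGFD-201 and by the VEGFA retained-intron transcripts, in the 4 old and young tables. Bars with 95% exact intervals for counting error show higher HGF and PDGFD-201 shares and lower retained-intron shares in old cells of both isolates.

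The promoters of the PDGF receptors, whose transcripts lay on opposite sides of their controls in both comparisons, are shown next (RefSeq, GRCh38.p14, 250 bases before the start, in the direction of transcription). Capitals mark matches to GGGCGG (the GC box) and TGANTCA (a loose form of the AP-1 site, with any base at N). Both were searched on both strands, with ACGTG (the hypoxia response core). PDGFRA has windows at 2 starts, chr4:54229043-54229292 and chr4:54233710-54233959 (both plus strand). The first holds the TGANTCA match, which reads TGAATCA, and no GC box. The second holds 2 GC boxes and no TGANTCA match. PDGFRB has 1, at chr5:150155846-150156095 (minus strand).
PDGFRA, first start: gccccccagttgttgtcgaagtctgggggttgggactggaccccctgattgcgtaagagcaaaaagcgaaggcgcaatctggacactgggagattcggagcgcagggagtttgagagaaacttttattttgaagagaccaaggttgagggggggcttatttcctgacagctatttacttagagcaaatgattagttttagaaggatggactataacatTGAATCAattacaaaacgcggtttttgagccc
PDGFRA, second start: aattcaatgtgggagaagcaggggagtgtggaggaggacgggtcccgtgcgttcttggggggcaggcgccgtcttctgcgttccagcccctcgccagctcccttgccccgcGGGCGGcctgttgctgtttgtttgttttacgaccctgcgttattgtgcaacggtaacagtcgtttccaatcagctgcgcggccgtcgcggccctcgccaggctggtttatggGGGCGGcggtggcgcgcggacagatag
PDGFRB: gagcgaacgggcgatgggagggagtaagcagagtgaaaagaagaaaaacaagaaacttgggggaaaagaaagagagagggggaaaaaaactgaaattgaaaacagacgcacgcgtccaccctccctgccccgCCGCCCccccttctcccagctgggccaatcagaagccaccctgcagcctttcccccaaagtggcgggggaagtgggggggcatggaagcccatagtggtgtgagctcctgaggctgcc

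Windows of 300 bases were given for 7 members, 11 windows in all, and not for PDGFB, PDGFC and VEGFA. GGGCGG was found in 9 of them and in 45.0% of all 35116 windows of this length. TGANTCA was found in 1, the first PDGFRA window shown, and in 7.71% of all. ACGTG was found in 1, that of MET, and in 21.4% of all. A match says only that these letters occur there.

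Other genes of these pathways were read from 5 lists. Of the other ligands and receptors, 3 of 7 tested were called in old cells (9.57% of all genes). FLT1, a VEGFA receptor, rose (3.00), as did VEGFB (1.45), and NRP1, a co-receptor of VEGFA, fell (-1.83, all log2 fold changes). FLT1 was low in I79, with 0.45 CPM in young and 2.12 in old cells, and had 2.87 and 27.4 in I10. In HMGB2 KD 3 of 8 tested were called (5.2% of all genes), all higher: FLT1 (2.01), the receptor-like PDGFRL (1.00) and NRP1 (0.83). The median log2 fold change of this list was 0.23 in old cells and 0.15 in HMGB2 KD. KDR, VEGFD and FLT4 were not among the genes that passed the filter on low counts in old and young cells.

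The ligand processing genes encode proteins that cleave or present these factors or, as SPINT1 and SPINT2, inhibit such cleavage. Of 9 tested, 2 were called in old cells (9.57% of all genes): PLAT, the tissue plasminogen activator known to cleave PDGFC, rose (2.24) and ADAMTS3, which cleaves pro-VEGFC, fell (-3.02). In HMGB2 KD 4 of 9 were called (5.2% of all genes). The proprotein convertases PCSK7 (0.75) and FURIN (0.70) rose, while PLAT (-0.80) and CCBE1, a cofactor of VEGFC cleavage, fell (-1.05). Medians were 0.23 and 0.34.

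Of 21 receptor-proximal signalling genes tested in old cells 3 were called, a share near the 9.57% of all genes. The adaptor GAB1 (1.01) and the kinase MAP2K1 (0.78) rose and CBLB, a ubiquitin ligase of activated receptors, fell (-1.83). Of 20 in HMGB2 KD 1 was called, near the 5.2% of all genes, and this was CBLB, which fell (-0.83). Of 17 feedback and early response genes, 5 rose in old cells (5.75% of all genes were called higher), among them the phosphatases DUSP5 (2.06) and DUSP6 (1.82), the inhibitor SPRY2 (1.48) and FOSL1 (1.18), and none was called lower. In HMGB2 KD 1 of 17, SPRY1, fell (-0.99), near the 5.2% of all genes called. Medians were 0.17 and 0.096 for the proximal genes and 0.50 and 0.049 for the feedback genes, in old cells and HMGB2 KD.

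VEGFA is itself a hypoxia target, and 7 of 13 HIF pathway genes rose in old cells, where 5.75% of all genes were called higher, and none was called lower. They included the glucose transporter SLC2A1 (3.07), NDRG1 (2.64), ADM (1.87) and BNIP3 (1.83), and the median was 1.43. HIF1A, which encodes an oxygen-regulated subunit, had 777 and 819 CPM in young and 418 and 579 in old cells (-0.70, adjusted p 0.031, edgeR, not called). EPAS1, another subunit gene, went the other way, with 613 and 459 CPM in young and 1594 and 1602 in old cells. It was among the called genes (1.59, adjusted p 0.0065, edgeR). HIF1A and EPAS1 are named after their values were seen. In HMGB2 KD 1 of 12 was called, ADM, which fell (-0.62), and the median was 0.044. VEGFA and the 7 called genes were each higher in old cells, and VEGFA had a negative value in HMGB2 KD. Whether the VEGFA change is linked to these genes was not tested.

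Summed endothelial markers stood at 68.8 to 96.9 CPM in young and 168 to 221 in old tables, nearly all of it TEK. Summed immune markers stood at 23.4 to 25.3 and 85.2 to 159 CPM, nearly all of it CD68. CDH5 and CD3E were at 0 in each. Summed epithelial markers, mostly KRT18 and KRT8, stood at 83.9 to 91.8 CPM in young and 52.1 to 53.6 in old tables. They stood at 53.5 to 57.5 CPM in WT and 73.1 to 103 in HMGB2 KD. Mural markers, which could accompany PDGFRB, summed to 294 to 327 CPM in young and 358 to 410 in old tables. CSPG4 and NOTCH3 were higher in old cells of both isolates, while MYH11, DES, KCNJ8 and ABCC9 were lower. RGS5 and MCAM were lower in old I79 cells and higher in old I10 cells. The sums were 781 to 888 in WT and 821 to 928 in HMGB2 KD. Within the last sums the markers differed: NOTCH3 had 85.6 and 113 CPM in WT and 179 and 243 in HMGB2 KD, CSPG4 had 21.1 and 26.5 against 35.0 and 57.9, and RGS5 had 591 and 446 against 487 and 250. NOTCH3 and CSPG4 thus lay above WT in both knockdown libraries, as PDGFRB did. Their part in the results was not tested.

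Genes with the pattern most like a member were sought over 3 log2 differences (old minus young in I79 and in I10, and HMGB2 KD minus WT) among 12775 genes. ISG20 (distance 0.068), ACCS (0.092) and ZYG11A (0.14) lay nearest to PDGFRA. PAQR7, IKBKB and NINJ1 lay nearest to VEGFA, each at 0.11. COL1A2 (0.046), ILK (0.050) and NECTIN3 (0.073) lay nearest to MET. HGF had no such close neighbour, with RDH5 (0.37), GRIK4 (0.43) and UCN2 (0.43) the nearest.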

How the data were processed

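The members and gene lists were chosen with earlier results of these data known. The authors gave each WT and HMGB2 KD library a deposited table of whole counts by gene (their methods name STAR on hg19). Summary rows, 16.9% to 18.0% of the totals, were left out. For each old or young group the authors deposited 1 table of estimated counts and TPM per transcript, made by a quantifier not given in the sources used here. Estimated counts were summed per gene through GENCODE v44 on GRCh37 (97.7% of transcript IDs matched) and rounded. For ICM the authors deposited estimated counts per gene and transcript region, which were summed.

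Genes were tested with edgeR 4.0.16 in R 4.3.3 (quasi-likelihood test, TMM scaling, filterByExpr, Benjamini-Hochberg adjustment over all genes tested). HMGB2 KD was compared with WT without a covariate, and old with young with isolate as a covariate, which leaves 1 residual degree of freedom. The planned sequence description was run on RefSeq promoters and proteins were not used here. ICM differences are mean log2 CPM (prior count 2) over shared genes, with no test. Intervals are exact (Clopper-Pearson, 95%) and, like limits of 3 counts, cover counting error only. Replicates were not duplicates (chi-square per degree of freedom 2.10 to 37.6). On simulated counts with 200 genes changed by 1.5 (log2), 99% were recovered with 1 false call for HMGB2 KD against WT (15338 genes) and 92.5% with 0 false calls for old against young (15115 genes). All genes were drawn with 1 shared dispersion, and the changed ones had a mean above 1 CPM. The recovery therefore does not carry over to smaller changes, low counts or genes with a wider spread. Alternatives were RLE scaling, no filter, DESeq2 1.42.0, a looser threshold, 1 RUVs factor, a replicate block, no isolate covariate, length-scaled counts and leaving out libraries. The 10 members are named, and of each list the called genes, up to 4 a direction by size. For PDGFRA, VEGFA, HGF and MET the 3 nearest genes by Euclidean distance are named.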

Additional observations from a re-analysis of the deposited data

Results flagged for a closer look

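HGF differed between the isolates in direction. Its log2 ratio of old over young in I79 minus that in I10 was -1.60, with I79 below 0 and I10 above 0. The difference between the isolates was not tested, since each side is 1 table.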

How the results depend on the processing

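For HMGB2 KD against WT, 5 members and 797 genes were called, and leaving out 1 library gave 2 to 5 members and 312 to 999 genes. The numbers shared by WT and HMGB2 KD are not known to pair them (correlation of their deviations 0.12, 2 pairs), and with the replicate block 6 members and 1243 genes were called. For old against young, 3 members and 1446 genes were called. An adjusted p under 0.05 gave 7 and 3860, no filter gave 7 and 4265, and DESeq2 called 5 members. HGF was -0.36 in I79 alone and 1.24 in I10 alone. Old and young tables carry no replicate number and were paired by isolate through the covariate, and without it 3 members and 1753 genes were called. Against WT in place of I79 young, MET in ICM was 0.59 instead of -0.37. The cause of these shifts was not tested. Of the other values of single members, none changed sign under the alternatives run. Members with few counts, PDGFB and PDGFA, are limited by depth.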

Other observations

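The ICM files split each gene's reads by transcript region. Of VEGFC reads 78.2% and 80.0% fell in the coding region in the 2 libraries, against 63.2% and 64.1% over all genes. VEGFA had 43.4% and 44.9% there, PDGFD 43.5% and 46.5% and PDGFRA 57.6% and 58.3%. HGF had 68.9% and 74.2%. The 2 libraries thus placed VEGFC and HGF above the level of all genes and VEGFA and PDGFD below it.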
